A study of Mus musculus with 2 samples.

Results

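The mitochondrial ribosomal protein genes are the 78 protein-coding genes of the GENCODE M21 annotation whose symbols begin with Mrpl or Mrps and a number. They were chosen by name alone, out of 55536 annotated genes, 15521 of which had reads. The reads came from a calf muscle made mainly of fast fibres, the gastrocnemius. The mice were B6CASTF1/J females of 25 days, hybrids of the first generation between C57BL/6J and the wild-derived CAST strain, and reads of the parental alleles were not separated. Each of 2 long-read RNA libraries was made from 2 µg of total RNA. The labels form 1 group of biological replicates 2 and 1, with a biosample each but 1 donor record for both, and there is no contrast between conditions. What separates the libraries may lie in the animals, the dissection or the library preparation, which cannot be told apart. Replicate 2 held 1557594 mouse reads and replicate 1 held 1069771, with 31067 and 30993 further reads from ERCC spike-in RNAs. The skeletal actin gene Acta1 stood at 75267 CPM in replicate 2 and 73992 CPM in replicate 1, where CPM is a count scaled to library size. The muscle creatine kinase gene Ckm stood at 69655 and 59922 CPM, and the fast myosin gene Myh4 at 7963 and 16360 CPM. Genes of skeletal muscle and a gene of fast fibres were thus read in both libraries.

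Mitochondria keep their own ribosome, which makes the few membrane proteins of the respiratory chain and ATP synthase that mitochondrial DNA encodes. Its rRNAs are transcribed in the mitochondrion, whereas all of its proteins are encoded in the nucleus, made in the cytosol and imported. Some of these proteins descend from bacterial ribosomal proteins and others are found in mitochondria alone. Skeletal muscle depends on this ribosome for its oxidative capacity.

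All 78 genes were read in both libraries, and each had 10 or more reads in total. Together they had 11097 reads in replicate 2 and 4723 in replicate 1, which is 7124 and 4415 CPM, with a mean of 5770 ± 1916 CPM (SD, n = 2). Their share of the mouse reads was 0.712% (95% exact Clopper-Pearson interval 0.699 to 0.726) in replicate 2 and 0.441% (0.429 to 0.454) in replicate 1. The intervals do not overlap, and the sum was higher in replicate 2 by 0.69 on the log2 scale. The reads carry no molecular identifiers in the files, so such intervals cover counting error only. In whole muscle a smaller number of cells of a type and less RNA per cell cannot be told apart.

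The 51 large-subunit genes summed to 4868 CPM in replicate 2 and 2925 CPM in replicate 1, and the 26 small-subunit genes to 2056 and 1365 CPM. Mrps36 carries the family name, but its protein is now known as a subunit of the 2-oxoglutarate dehydrogenase complex. It was counted apart and stood at 200 CPM in replicate 2 and 125 CPM in replicate 1. The genes of bacterial descent (46) summed to 4434 and 2539 CPM and those specific to mitochondria (31) to 2491 and 1751 CPM. Subunits are those of the assembled ribosome, in which the products of Mrps30 and Mrps18a sit in the large subunit in spite of their names.

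The levels of the members lay close together. The median gene stood at 55.2 CPM, and the 10th and 90th percentiles of the mean CPM were 28.9 and 127 CPM, a 4.39-fold range. The same range was 10.9-fold over 76 cytosolic ribosomal protein genes (median 124 CPM) and 9.02-fold over 85 nuclear genes for respiratory chain and ATP synthase subunits (median 577 CPM). These ranges are descriptions and their difference was not tested. A long read counts 1 transcript whatever its length, so CPM here is a share of transcripts and is not divided by length. The order of the members was similar in both libraries, with a Spearman correlation of 0.83 across the 78 genes, beside 0.86 across all genes, which share library and depth.

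**Figure D1:**
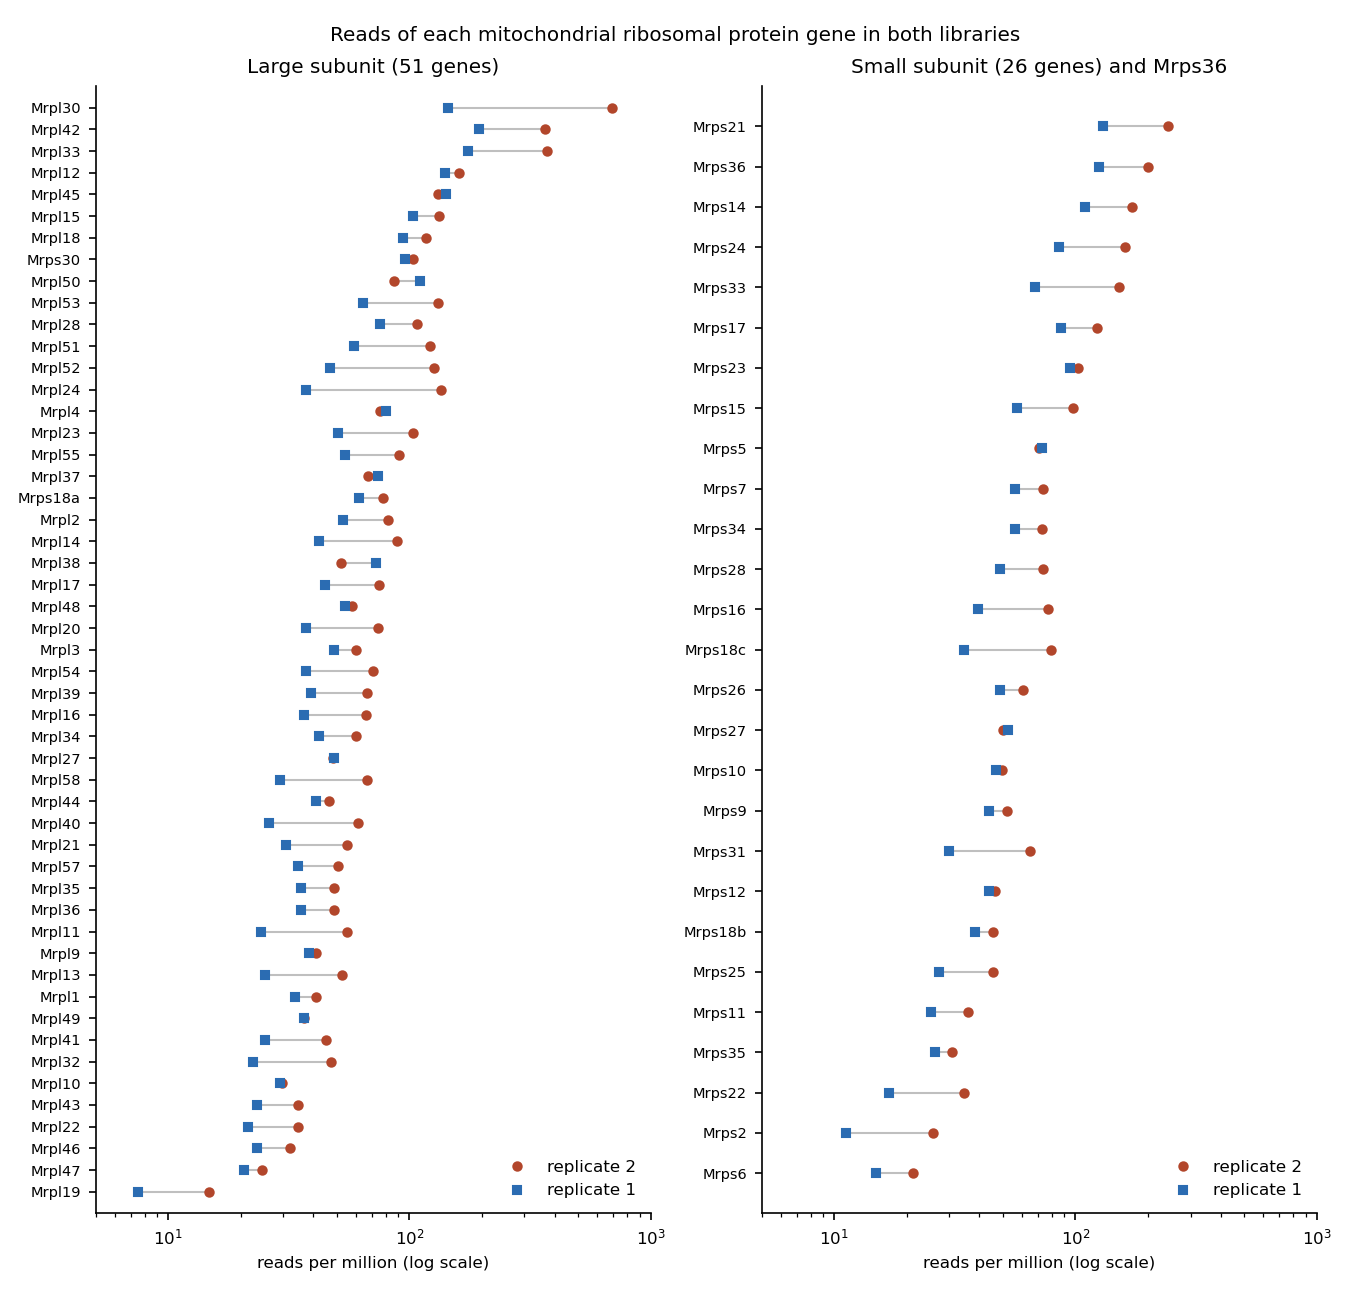
CPM, on a log scale, of each member in replicate 2 (circles) and replicate 1 (squares), with large-subunit genes on the left and small-subunit genes with Mrps36 on the right, each ordered by mean; grey lines join the libraries. Most members lie between about 28.9 and 127 CPM, Mrpl30 has the widest gap, and Mrpl19 is lowest.

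Among large-subunit genes, Mrpl30 (chromosome 1, 37890477 to 37898535, plus strand, mm10), a relative of a bacterial ribosomal protein, had the highest total. It stood at 692 CPM in replicate 2, against 144 CPM in replicate 1. That rank rests on reads of 1 unspliced model: complete chains, defined below, gave Mrpl30 134 CPM in replicate 2 and 84.1 CPM in replicate 1, the 10th highest of the 78 members. Mrpl42, which has no bacterial counterpart, had 365 CPM in replicate 2 and 194 CPM in replicate 1. Mrpl33, whose product is one of the smallest ribosomal proteins, had 372 and 175 CPM. On complete chains Mrpl33 (273 ± 140 CPM, SD, n = 2) and Mrpl42 (268 ± 112 CPM) were the 2 highest members. They were also the highest on complete chains after division by model length, at 584 CPM per kilobase for Mrpl33 and 406 for Mrpl42, against 113 for Mrpl30. Mrpl12, the stalk protein that also binds the mitochondrial RNA polymerase, had 161 CPM in replicate 2 and 140 CPM in replicate 1. Mrpl45, a mitochondria-specific protein near the exit tunnel that helps to hold the ribosome to the inner membrane, had 131 and 142 CPM. Of the next 3, Mrpl15 and Mrpl18, of bacterial descent, averaged 118 ± 20.1 and 106 ± 15.9 CPM (SD, n = 2), and Mrps30 averaged 100.1 ± 5.46 CPM. Among these 8 genes, each pair of neighbours in the order differed by less than the larger of their 2 SDs. Mrps18a, also a large-subunit protein, had 77.7 CPM in replicate 2 and 61.7 CPM in replicate 1.

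Among small-subunit genes, Mrps21, of bacterial descent, had 243 CPM in replicate 2 and 130 CPM in replicate 1. Mrps14 had 171 and 109 CPM, and Mrps24 had 160 and 85.1 CPM. Both also descend from bacterial proteins, and Mrps21 was the third highest member on complete chains, after Mrpl33 and Mrpl42. Mrps33, specific to mitochondria, had 152 CPM in replicate 2 and 68.2 CPM in replicate 1. The next 4 by mean CPM were Mrps17 (105 ± 25.7 CPM), Mrps23 (99.0 ± 5.21 CPM), Mrps15 (77.3 ± 28.7 CPM) and Mrps5 (71.8 ± 1.62 CPM). Neighbours among these 8 genes also differed by less than the larger of their 2 SDs. When CPM was divided by the length of the most read model, 10 of the 16 highest members stayed among the 16 highest, with a rank correlation of 0.72 between the orders. On complete chains 15 of these 16 stayed among the 16 highest. The lowest member was Mrpl19, of bacterial descent, with 23 reads in replicate 2 and 8 in replicate 1, or 14.8 and 7.48 CPM.

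The 2 libraries were compared gene by gene with Fisher's exact test, two-sided, on a gene's reads against the rest of the library, with Benjamini-Hochberg adjustment over the 8892 genes that had 10 or more reads. Such a test compares these libraries and not conditions. Of the 78 members, 36 were higher in replicate 2 at an adjusted p below 0.05, 0 were lower and 42 did not pass. Over all genes tested, 26% were called, 11.1% as higher and 14.9% as lower in replicate 2, so 46.2% of members against 11.1% of all genes were higher. Genes with more reads pass this test more easily, and the 2 percentages were not matched for level. Mrpl20, at rank 39 of the 78 members by mean CPM, stood above 80.0% of the genes tested. The log2 ratio of replicate 2 over replicate 1 was above 0 for 69 members, with a median of 0.55 beside -0.18 over all genes. By subunit, 24 of 51 large-subunit and 11 of 26 small-subunit genes were higher, and the remaining one was Mrps36. Cytosolic ribosomal protein genes were higher in 65 of 76 cases (median 0.91), and respiratory chain and ATP synthase genes in 66 of 80, with 3 lower (median 0.94). With the trend on transcript length described below removed, 19 of 76 cytosolic ribosomal protein genes (median 0.26) and 40 of 80 respiratory chain genes (median 0.21) were higher, beside 23 of 78 members (median 0.25).

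That count treats reads as the only source of error. With a dispersion of 0.04 in edgeR's exact test, 2 members were higher, Mrpl30 and Mrpl24, beside 1.18% of all genes. At the dispersion estimated from both libraries as 1 group, a coefficient of variation of 0.363, edgeR's exact test called 0 members and 0.124% of all genes as higher. By Fisher's exact test 41 of the 78 members had an unadjusted p below 0.05, beside 3097 of all 8892 genes tested.

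The 6 largest ratios among the called members were those of Mrpl30, Mrpl24, Mrpl52, Mrpl40, Mrpl58 and Mrps18c. Mrpl30 had 1078 reads in replicate 2 and 154 in replicate 1, a log2 ratio of 2.26 (Fisher's exact test, adjusted p = 8.47e-103). Mrpl24, of bacterial descent, had 211 and 40 reads, a log2 ratio of 1.84 (adjusted p = 1.23e-15, same test). The reads behind these 2 ratios differed in kind from those of the other members, as set out next. Mrpl52, a small mitochondria-specific protein, had 198 reads in replicate 2 and 50 in replicate 1, a log2 ratio of 1.43. Mrpl40, also mitochondria-specific, had 95 and 28 reads and a log2 ratio of 1.20. Mrpl58, a peptidyl-tRNA hydrolase built into the large subunit and known for releasing stalled chains, had 104 and 31 reads and a log2 ratio of 1.19. Mrps18c had 123 and 37 reads and a log2 ratio of 1.18. All 6 were higher in replicate 2. At the other end, Mrpl38 had 81 reads in replicate 2 and 78 in replicate 1, a log2 ratio of -0.49 that did not pass (adjusted p = 0.110, same test). The lowest of the others was Mrpl50, with 135 and 118 reads and a log2 ratio of -0.35, also not called.

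Several abundant members were higher in replicate 2 and several were not called. Mrpl33 (log2 ratio 1.09), Mrps33 (1.14), Mrpl42 (0.91), Mrps24 (0.91), Mrps21 (0.90), Mrps36 (0.67) and Mrps14 (0.64) were higher. Mrpl12 (0.20), Mrps18a (0.33), Mrps30 (0.11) and Mrpl45 (-0.12) were not called. Several of these calls depended on length, as given below. Both TMM and DESeq2 scaling raised every ratio by 0.18 on the log2 scale, which put the median of all genes at 0.00 under each and the members called at 43 higher and 0 lower. Over all genes the calls under TMM were 14.3% higher and 9.48% lower. With Known models alone, those that match the annotation, 22 members were higher and Mrpl38 was lower (log2 ratio -0.69), against 8.69% and 21.9% of all genes. Of the 36 called members, 23 kept their call under every scaling, count minimum and transcript class in which they were tested. Mrpl33 is among these 23, but it had under 10 Known reads and was not tested with Known models.

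Single-exon reads made up most of the excess of Mrpl30 and Mrpl24. In Mrpl30, 869 of the 1078 reads of replicate 2 (80.6%) and 64 of the 154 reads of replicate 1 (41.6%) belonged to 1 unspliced model of 174 bases in the last of 6 exons (chromosome 1, 37898165 to 37898338), which the authors class as Genomic, the TALON class for models that overlap a gene without following its splicing. Complete chains are models that follow an annotated transcript (Known), join annotated splice sites in another way (NIC) or use an unannotated site (NNC). They had 209 reads of Mrpl30 in replicate 2 and 90 in replicate 1. On these the log2 ratio was 0.80 in place of 2.26. In Mrpl24, which overlaps Rrnad1 on the opposite strand, a single-exon model of 107 bases in the last of 6 exons held 157 reads of replicate 2, and in replicate 1 a model given a length of 1 base with the same end held 18. Complete chains of Mrpl24 had 54 and 21 reads, a log2 ratio of 0.93 in place of 1.84. On complete chains alone both stayed higher in replicate 2 (Fisher's exact test, adjusted p = 6.63e-05 for Mrpl30 and 0.0388 for Mrpl24). Over all members the count was again 36, of which 32 were shared, given here without the share of all genes called. Mrpl51, specific to mitochondria, had an 1171-base single-exon model with 81 reads in replicate 2 and 0 in replicate 1, while its complete chains had 106 and 51 reads. The 20 genome bases after these models held 2 A for Mrpl30, 9 for Mrpl24 and 12 for Mrpl51. The part of priming within the last exon was not tested. How strand entered the counting is not stated in these sources, and 36 members overlap a gene on the opposite strand, so their reads may hold some of that gene's.

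Transcript length moved with the ratio. Over all genes the Spearman correlation between length and log2 ratio was -0.50, and over the 78 members it was -0.29, both as descriptions across genes of the same 2 libraries. The members were short, with a median of 1284 bases for the most read complete model, against 2591 bases over all genes. After a lowess trend on log2 length was removed and reads were compared with an exact binomial test, 23 members were higher and 1, Mrpl38, was lower in replicate 2, against 7.56% and 5.56% of 8752 genes. The median of the members was then 0.25 and that of all genes 0.00. Of the 36 members called without the trend, 14 were among these 23. Mrps21, Mrps36 and Mrps17, which were higher before, stood at -0.054, -0.070 and -0.13 after it and were not called. The calls of Mrpl33 (0.11), Mrpl42 (0.13), Mrps15 (0.22), Mrps18c (0.38), Mrpl52 (0.39) and Mrps24 (0.40) were lost as well. Mrpl58 and also Mrpl30 (1.74), Mrpl24 (1.58), Mrps14 (1.06), Mrpl40 (0.90) and Mrps33 (0.72) kept theirs, and Mrpl15 (0.94) and Mrps30 (0.60), not called before, were higher. The ratio was above 0 for 53 of the 78 members after removal, against 69 before.

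**Figure D2:**
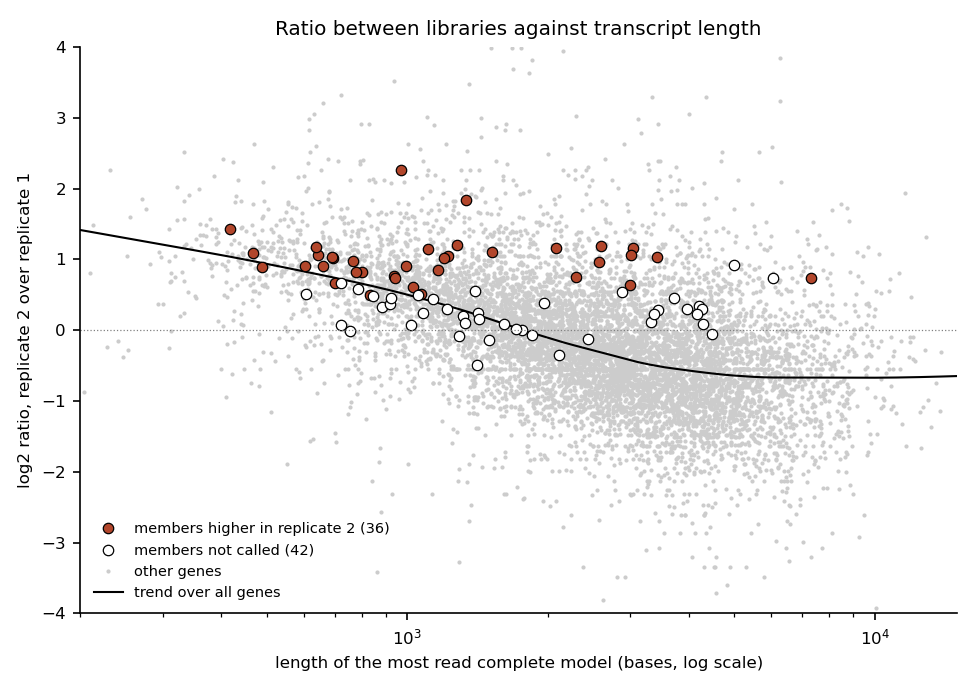
Log2 ratio of replicate 2 over replicate 1 against the length of the most read complete model in bases (log axis), with members as large circles (filled where higher in replicate 2, open where not called), other genes as grey points and the lowess trend as a line; points beyond 4 on either side are not drawn. Members of 418 to 969 bases lie a median of 0.09 above the trend and those of 1849 to 7300 bases a median of 0.94 above it.

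The annotated length need not be the length of the reads, since a spliced read takes the ends of the model it matches. The 26 shortest members (418 to 969 bases) had a median ratio of 0.79 and lay 0.09 above the trend. The 26 longest (1849 to 7300 bases, the longest being Mrpl17) had a median ratio of 0.41 and lay 0.94 above it. With coding length in place of model length, for 77 members, the gap was nearly even: the shortest (264 to 483 bases), middle (501 to 756) and longest (759 to 1329) groups had median ratios of 0.86, 0.58 and 0.24 and lay 0.29, 0.32 and 0.39 above the trend. With that trend removed 18 members were higher and 1 was lower, against 8.08% and 6.62% of 7377 genes, and all 18 were among the 36. Coding length was tried after the values above had been seen.

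Other parts of the mitochondrial translation system did not all move with the ribosomal proteins. Among 5 ribosomal proteins whose symbols do not begin with Mrp, 3 were higher in replicate 2 and 0 were lower: Gadd45gip1, a large-subunit protein, with a log2 ratio of 1.44 (420 reads in replicate 2, 106 in replicate 1), and the small-subunit proteins Chchd1 (167 and 72 reads, 0.67) and Aurkaip1 (146 and 63 reads, 0.66). Ptcd3 and Dap3, both of the small subunit, had ratios of -0.39 and 0.05 and were not called. With the length trend removed Gadd45gip1 alone stayed higher (1.72), and Chchd1 (-0.15) and Aurkaip1 (0.28) were not called. Both mitochondrial rRNAs were higher, with 190 and 39 reads for mt-Rnr2 (1.73) and 78 and 15 reads for mt-Rnr1 (1.80). The 13 protein-coding genes of mitochondrial DNA, whose mRNAs this ribosome translates, summed to 5060 CPM in replicate 2 and 1752 CPM in replicate 1. Of these 13 genes, 9 were read in both libraries. How fully the libraries capture mitochondrial rRNAs and mRNAs was not tested, so their ratios describe the reads alone.

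Of 16 translation factors and mRNA-binding proteins, 1 was higher and 2 were lower, with a median ratio of -0.13. The lower calls in this list and the next 2 are to be read against the 14.9% of all genes that were lower. The higher one was Slirp, at a log2 ratio of 1.06 (247 reads in replicate 2, 81 in replicate 1), and its binding partner Lrpprc was lower, with 75 and 124 reads (-1.26). The pair is known to stabilise mitochondrial mRNAs. The elongation factor Gfm1, also lower, had 104 and 107 reads (-0.58). Of 21 genes tested for aminoacyl-tRNA synthetases and for amidotransferase subunits (Gatb, Gatc and Qrsl1), 0 were higher and 2 were lower. The lower ones were Iars2 (39 and 48 reads, -0.84) and Aars2 (35 and 47 reads, -0.96). The most read of that list were Kars, Gars and Fars2, none of them called, of which Kars and Gars also serve the cytosol. Of 24 assembly and RNA factors tested, 0 were higher and 3 were lower: the mitochondrial RNA polymerase Polrmt (12 and 31 reads, -1.88), the rRNA methyltransferase Nsun4 (19 and 28 reads, -1.09) and the RNA helicase Dhx30 (27 and 36 reads, -0.95). Their most read genes, Malsu1, Rbfa and Mtg1, were not called. The median model lengths of these 3 lists were 2606, 2400 and 2275 bases, against 1284 for the members. After the length trend was removed their median ratios were -0.02, 0.02 and -0.13. Of the 7 lower calls, Polrmt (-1.33) and Lrpprc (-0.66) remained, and Gfm1 (-0.0056), Iars2 (-0.18), Aars2 (-0.47), Nsun4 (-0.82) and Dhx30 (-0.40) were not called. Slirp stayed higher (1.40), and Malsu1 (0.83), an assembly factor, and Mtif3 (1.29), an initiation factor, were then higher too. The models of these 3 genes were long, at 2701 bases for Slirp, 2819 for Malsu1 and 4927 for Mtif3. Values with coding length in place of model length were not obtained for these lists or for Gadd45gip1.

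Most members used 1 splice form. In 74 members with 20 or more complete reads in each library, the leading chain held a median of 94.2% of complete reads, against 90.6% over 3359 other protein-coding genes, and it held over 90% in 53 members (71.6%), against 51.2% of the others. The leading chain was the same in both libraries for all 74 members, against 96.2% of the others. It was an annotated protein-coding transcript in 73 of the 74 (98.6%), against 93.2%, with Mrpl33 as the exception. A leading chain had a median of 5 exons, with 2 to 12. In 43 of the 78 members only 1 chain had 5 or more reads. The families most like the members had higher shares still. The median was 95.8% over 67 cytosolic ribosomal protein genes and 97.8% over 77 respiratory chain and ATP synthase genes. The leading chain held over 90% in 76.1% and 85.7% of these genes. It was an annotated protein-coding transcript in 97.0% and 97.4% of them, so reliance on 1 form is not particular to the members. No test was made of these shares.

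**Figure D3:**
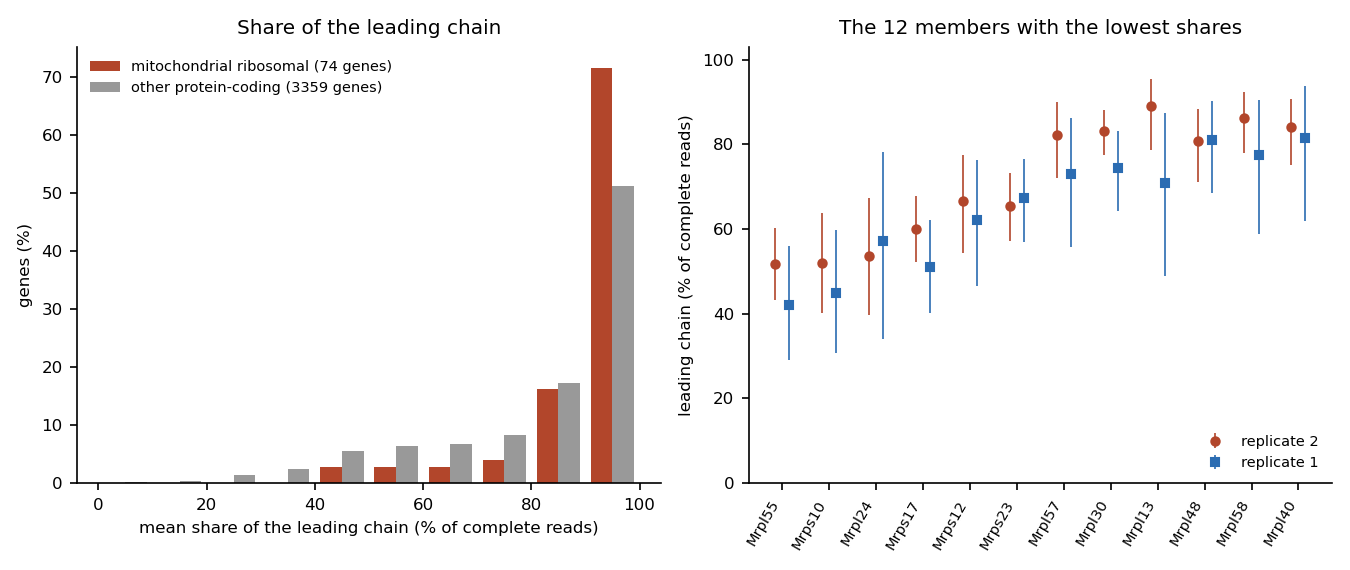
On the left, the percentage of genes by mean share of the leading chain among complete reads, for 74 members and 3359 other protein-coding genes; on the right, the share in replicate 2 (circles) and replicate 1 (squares) for the 12 members with the lowest means, with exact 95% intervals. The top bin holds 71.6% of members, and the intervals of the libraries overlap in each of the 12.

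For leading-chain shares, Fisher's exact test set the libraries against each other in members that had at least 2 chains with 5 or more reads. None of 35 members passed, 0 had an unadjusted p below 0.05, and the lowest adjusted p was 0.580, for Mrpl13, while 1.46% of 1844 genes passed. The 6 lowest shares belonged to Mrpl55, Mrps10, Mrpl24, Mrps17, Mrps12 and Mrps23. Mrpl55, of the large subunit, had 72 of 139 complete reads in its leading chain in replicate 2 (51.8%) and 24 of 57 in replicate 1 (42.1%). Mrps10 had 39 of 75 (52.0%) and 22 of 49 (44.9%). Both were split between forms in each library. In Mrps17 the shares were 60.1% in replicate 2 and 51.2% in replicate 1, in Mrpl24 53.7% and 57.1%, in Mrps12, a protein of the decoding centre, 66.7% and 62.2%, and in Mrps23 65.5% and 67.4%.

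Among members, 56 other chains in 35 genes had 5 or more reads. Of these, 23 were annotated protein-coding transcripts, 10 of them with the same coding sequence as the leading chain. Another 11 were annotated as a transcript type other than protein-coding, and 22 were outside the annotation. In Mrps17 and Mrps12 the annotated coding alternatives left the coding sequence as it was and differed before the start codon. Other alternatives moved a splice acceptor by a few bases. The spliced forms that hold the extra bases are shown because 2 of the 3 change the protein by whole codons, with the bases present in only one of the paired chains in capitals, 5′ to 3′ on the gene's strand, from GENCODE M21 transcripts.
Mrps10: gtggcctcgcgctCAGtgccagtatgaag
Mrps36: ctaaactcagtgCCTCAGaagctttggggt
Mrpl55: ctcccacgctaagCAGggcctacgtcggg
The coordinates span the intron between the joined exons, on mm10. In Mrps10 (chr17:47372479-47372588, plus strand) the 3 capitals are in the second chain, which had 31 reads in replicate 2 and 21 in replicate 1, and the leading chain without them had 39 and 22. In Mrps36 (chr13:100739184-100741179, minus strand) the 6 capitals are in the leading chain, with 257 and 117 reads, and absent from one with 30 and 9. In Mrpl55 (chr11:59202647-59204187, plus strand) the 3 capitals lie before the start codon and are in the leading chain. The chain without them had 28 and 13 reads. Each capital stretch ends in AG, the letters that also end an intron. Whether a form belongs to the C57BL/6J or the CAST allele was not tested.

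Mrpl33 (chromosome 5, 31596935 to 31664384, plus strand) was the only member, of the 74, led by a chain outside the annotation. This chain, which the authors class as NNC for its unannotated splice site, had 560 of 579 complete reads in replicate 2 (96.7%) and 178 of 186 in replicate 1 (95.7%). The coding transcript in the annotation had 0 reads in both. The leading chain ends exon 1 8 bases past the annotated donor, at 31614030 in place of 31614022, and lacks the annotated exon of 19 bases at 31614603 to 31614621. The 2 junctions are shown because they differ by these bases alone; the small exon is in capitals in the first and the 8 added bases in the second.
annotated coding chain: ctcttTTGCCAAGAGCAAGTCAAAaacta
leading chain: gctgtctcttGTAAGTCGaactatcctg
They span chr5:31614018-31616385 and chr5:31614013-31616390 on the plus strand of mm10, introns included, with bases from GENCODE M21 transcripts. The leading chain is thus 11 bases shorter within the coding span, a number that is not a multiple of 3. Its new donor is followed by GT, as is the annotated one. The 8 added bases matched bases 10 to 17 of the small exon at 6 of 8 positions without a gap. The files hold no read sequences, so whether the reads themselves hold the 19 bases, placed elsewhere by the aligner, was not tested, and the chain is described only as it was deposited. Chains that hold the small exon spliced on both sides had 3 reads in replicate 2 and 2 in replicate 1.

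**Figure D4:**
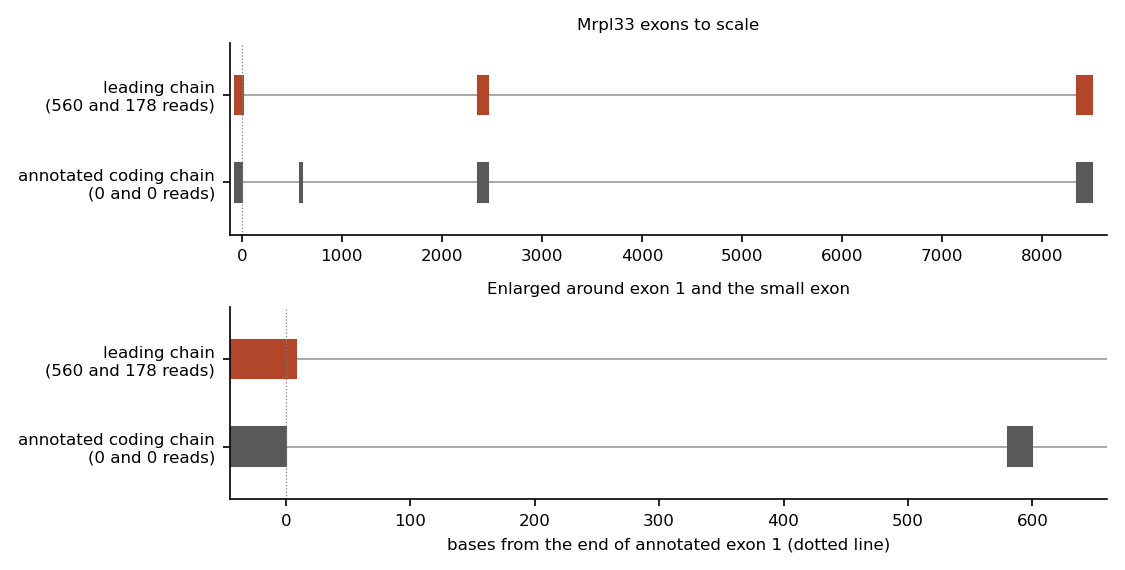
Exons of Mrpl33 drawn to scale as boxes in the leading chain (top) and the annotated coding chain (bottom), in bases from the end of annotated exon 1; the outer ends are cut near the coding span, the lower panel enlarges the first intron, and reads are those of replicate 2 and replicate 1. Exon 1 of the leading chain passes the dotted line by 8 bases and the 19-base exon is missing from it.

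The other most read chains outside the annotation were minor. In Mrps17 a chain that skips an exon of 80 bases before the start codon had 15 reads in replicate 2 and 11 in replicate 1. In Mrpl55 a chain without 2 exons had 13 and 5 reads. In Mrps24 a donor moved by 21 bases gave a chain with 13 and 3 reads that keeps the stop codon of the leading chain. In Mrpl42 a chain with an added pair of exons had 10 and 3 reads. Mrps27, a small-subunit protein, had a chain with an added exon of 123 bases (chromosome 13, 99401270 to 99401392) with 4 reads in replicate 2 and 9 in replicate 1. Its reading frame runs through the added exon to the annotated stop codon, 1371 bases in place of 1248. It was 5.33% of complete reads in replicate 2 and 17.0% in replicate 1. The share of its leading chain was 89.3% and 79.2%, a difference that did not pass Fisher's exact test (adjusted p = 0.782).

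By class, 81.7% ± 7.77 (SD, n = 2) of the members' reads were Known, against 68.1% ± 4.09 of reads of other annotated genes. NNC models took 6.56% ± 0.803 of the members' reads, and 2.17% ± 0.0462 without Mrpl33. Of other genes' reads they took 2.56% in replicate 2 and 18.9% in replicate 1, a mean of 10.7% ± 11.5. NIC models, which combine annotated sites in an unannotated way, took 1.55% ± 0.170, against 6.98% ± 2.45 of other genes' reads. With classes rebuilt from the annotation alone, new combinations of annotated sites were 1.39% ± 0.226 of the members' reads and 4.14% ± 0.530 of other genes' reads. Chains with an unannotated site were then 6.81% ± 0.885 and 14.7% ± 7.92. The members' means were the lower ones under both kinds of class, but the size of each gap depended on the labels. For unannotated sites in replicate 2 the direction did too. There the members had 7.13% against 2.56% of other genes' reads by label, and 7.43% against 9.09% with rebuilt classes. ISM models, which match part of an annotated chain, took 3.21% ± 0.888, against 10.4% ± 2.68. The Genomic class was 11.4% of the members' reads in replicate 2 and 2.54% in replicate 1, a mean of 6.96% ± 6.24. It was also larger in replicate 2 over other genes, at 5.45% against 2.21% in replicate 1 (mean 3.83% ± 2.29). Without Mrpl30 and Mrpl24 the members' mean was 1.62% ± 1.11, so these 2 genes held most of the members' Genomic reads. The libraries did not label chains alike in every case: of 219 chains of members found in both, 7 had another label in the other library.

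**Figure D5:**
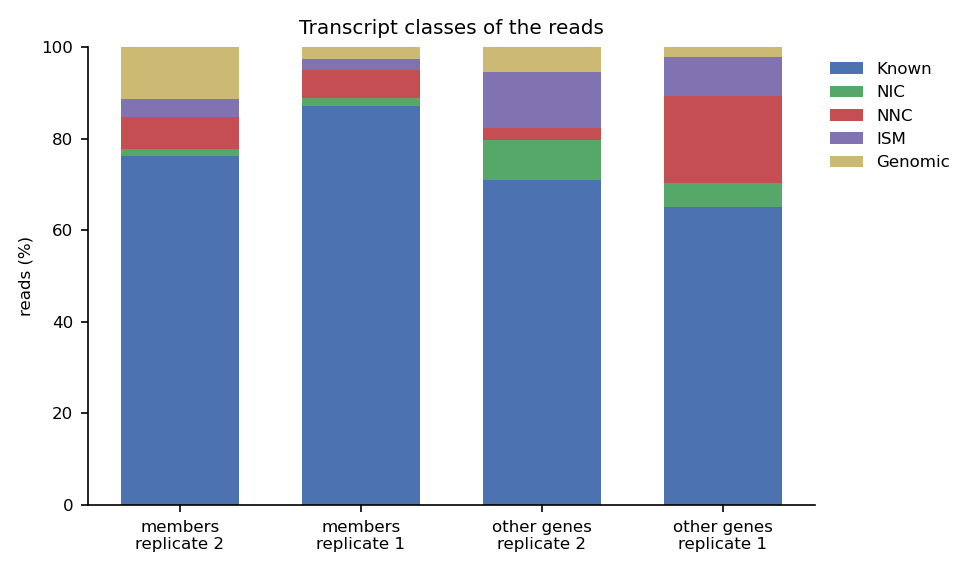
Percentage of reads in the 5 transcript classes, as stacked bars, for members and for all other annotated genes in replicate 2 and replicate 1. Known reads are 76.2% of the members' reads in replicate 2 and 87.2% in replicate 1, and the Genomic part is larger in replicate 2.

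Promoter letters were counted as a description of the members, and their relation to the difference between the libraries was not tested. RefSeq promoter windows (GRCm38.p6, 250 bases before to 50 after a start) were found for 69 of the 78 members. Nuclear respiratory factor 1 (NRF1), ETS factors and YY1 are known regulators of nuclear genes for mitochondrial proteins. The NRF1 motif, searched as GCGC, any base and TGCGC on either strand, was in 13 of 69 members (18.8%). It was in 885 of 6807 other genes tested and in 1389 of all 26956 other genes with a window. The 26956 include the 6807, here and for the letters below. The ETS letters CCGGAAG, also on either strand as all below, were in 26 members (37.7%), against 21.8% and 9.86%. The YY1 letters AAGATGGC were in 12 members (17.4%), against 6.11% and 3.15%. The letters CCAAT were in 27 members (39.1%), against 42.6% and 41.1%. The TATA box letters TATAAA were in 5 members (7.25%), against 8.92% and 15.7%. These are letter matches, with no test and no evidence of binding. The 100 bases before the start of the 3 highest members with an NRF1 match there are shown, with the match in capitals.
Mrpl30: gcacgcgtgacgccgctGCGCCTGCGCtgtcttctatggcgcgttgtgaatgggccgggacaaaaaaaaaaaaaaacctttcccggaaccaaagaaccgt
Mrps21: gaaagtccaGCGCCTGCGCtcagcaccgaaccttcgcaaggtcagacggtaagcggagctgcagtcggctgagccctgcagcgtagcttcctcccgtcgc
Mrpl12: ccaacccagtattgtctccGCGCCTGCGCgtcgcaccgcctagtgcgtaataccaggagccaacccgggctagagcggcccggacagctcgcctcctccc
They lie at chr1:37890377-37890476 on the plus strand, chr3:95871515-95871614 on the minus strand and chr11:120484537-120484636 on the plus strand. The 3 matches begin 83, 91 and 81 bases before the start.

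Processed pseudogenes can share reads with their parent gene. Of 5 annotated pseudogenes with a member's name, Mrpl23-ps1 had 114 reads in replicate 2 and 29 in replicate 1, beside 162 and 54 for Mrpl23 itself, which makes the level of Mrpl23 uncertain. The other 4 had 0 to 4 reads in each library.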

How the data were processed

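The deposited tables hold counts of reads per transcript model, with no normalization by the authors, as their whole-number values show. Per the file headers and notes, models were named by TALON on mm10 with GENCODE M21. Not given in the sources used here are the platform, the aligner and read filters. Gene names and types of all 78 members were equal in the deposited models and in M21, and the deposited exon numbers and lengths matched the models for each of 94598 entries (replicate 2) and 75228 entries (replicate 1).

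Counts were summed per gene, and CPM used all mouse reads, with ERCC spike-ins left out. A count of 0 allows up to 1.93 CPM in replicate 2 and 2.80 CPM in replicate 1. Each log2 ratio sets replicate 2 over replicate 1 after 0.5 reads were added. Models were matched between libraries by intron chain. Because the labels give 1 group, no quasi-likelihood test could be fitted. Fisher's exact test, the exact binomial test, lowess (fraction 0.4) and intervals used Python 3.11.15, scipy 1.17.1 and statsmodels 0.14.6. Alternatives used edgeR 4.0.16 and DESeq2 1.42.0 in R 4.3.3. The gene, length and isoform steps were tested on simulated data. Apart from the changes put in, the simulated libraries differed by counting error alone, so they do not cover variation between real libraries.

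The members, lists and tests were chosen with earlier results of these data known. Named members were the 8 highest of each subunit, the 6 largest ratios each way among called members, the 6 lowest leading-chain shares, the 6 most read chains outside the annotation, and Mrps36, Mrps30, Mrps18a, Mrpl12 and Mrpl58 for their role, and of each list the 3 most read genes and those called. Mrpl38, Mrpl50, Mrpl51, Mrpl13, Mrpl17, Mrpl19, Mrpl23 and Mtif3 were named after their values were seen. Wbscr16 is not in the annotation under this name. Pars2, Trmt61b, Mrm2 and Tfb1m had under 10 reads and were not tested.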

Additional observations from a re-analysis of the deposited data

How the results depend on the processing

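Of the alternatives to the 36 members called, all higher in replicate 2, TMM and DESeq2 scaling gave 43 each, no count minimum 31, a minimum of 50 reads 38, complete chains 36 and removal of the length trend 24. The share of all genes called is given above for TMM scaling and for removal of the length trend. For DESeq2 scaling, both changes of the count minimum and complete chains it is not given, so these counts describe the members alone. The count was over 1.5 times lower with Known chains alone (23, of which 22 were higher and Mrpl38 was lower), with edgeR's exact test, its dispersion set to 0.04 (2) or to the common estimate (0), and with the trend on coding length removed (19). Scaling changed the split over all genes from 983 higher and 1328 lower to 1275 and 843 with TMM. With the length trend removed 18 members went to below 0 and 2 to above it. Of those called before, these were Mrps17 (-0.13), Mrps21 (-0.054) and Mrps36 (-0.070), none called after. With the trend on coding length removed 11 went to below 0 and 3 to above it, of which Mrps17 (-0.029) had been called. The summed level was 9965 CPM when the 20 most read genes were left out of the total, and 4415 to 7124 CPM with a replicate left out. The isoform test called 0 members in each alternative, with 1 at an unadjusted Fisher p below 0.05 for Known chains alone. Leaving out a replicate gave Known shares of 76.2 to 87.2% and 73 annotated coding leading chains. The median above the length trend was 0.24 to 0.35 over the alternatives. The dispersion rests on both libraries as 1 group, and alternatives added after seeing the data were coding length, leaving out Mrpl30, Mrpl24 or Mrpl33, and levels on complete chains. No paired analysis was possible because there is 1 group. With 2 libraries, 23 to 1078 reads per member in replicate 2 and 8 to 208 in replicate 1, small differences were not detectable.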
